A study of Mus musculus with 9 samples.

Results

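Enzymes of the tricarboxylic acid cycle were examined in mouse cumulus cells, the specialised granulosa cells around an oocyte. Their 9 genes (Cs, Idh3a, Idh3b, Idh3g, Idh2, Ogdh, Dlst, Dld and Mdh2) were taken by name, with every probe set annotated to 1 of them and to no other gene. They are 9 of 18194 genes with a probe set annotated to that gene alone, and are read by 24 of the array's 45101 probe sets. A probe set is a group of short probes whose signals are combined into 1 value for a transcript. Cumulus cells came from DM females, which lack BMP15 and carry 1 intact copy of Gdf9 (Bmp15-/-Gdf9+/-), from Bmp15-/- females and from wildtype females, all on a mixed B6/129 background and aged 4 to 5 months. Every female received 5 IU of equine chorionic gonadotropin for 48 hours, and milrinone, an inhibitor of the oocyte's phosphodiesterase PDE3, was in the medium at 5 µM, so all genotypes share both. There were 3 arrays per genotype, and each array held cumulus cells of 75 to 100 complexes pooled from 3 to 4 mice, with 10 ng of total RNA amplified in 2 rounds. BMP15 and GDF9 are growth factors that the oocyte secretes.

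The cycle oxidises acetyl groups to carbon dioxide in the mitochondrial matrix and hands the electrons to the respiratory chain. Acetyl-CoA enters through citrate synthase, 2 oxidative decarboxylations follow at isocitrate dehydrogenase and at the 2-oxoglutarate dehydrogenase complex, and malate dehydrogenase restores oxaloacetate. Mouse oocytes take up glucose poorly and are known to depend on pyruvate and other metabolites from cumulus cells.

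Signs of cell identity and RNA quality were read first. Of the granulosa marker list, 9 of 9 genes with a value passed the filter on dim genes (at least 3 of 9 arrays above the 40th percentile of their own array), with list medians of 10.22 to 10.40 in DM, 10.33 to 10.44 in Bmp15-/- and 10.40 to 10.61 in wildtype (log2). For oocytes, 14 of 18 markers passed, with medians of 5.13 to 6.18 in DM, 5.57 to 6.52 in Bmp15-/- and 5.76 to 7.82 in wildtype, the highest on wildtype array 2. For theca and stroma, 5 of 9 passed, with medians of 7.00 to 7.28, 6.35 to 6.49 and 5.97 to 6.16 in the same order, while Cyp17a1, Lum, Dcn and Col1a2 were dim. The median gene was Star on the wildtype arrays and Pdgfrb on the DM arrays. Acta2 and Pdgfra were higher in DM (7.5 to 7.8 and 8.9 to 9.5) than in wildtype (5.4 to 5.9 and 7.4 to 8.0). Star and Col1a1 were slightly higher (6.3 to 6.4 and 5.6 to 5.9, against 6.0 to 6.2 and 5.2 to 5.3). Pdgfrb was lower (7.0 to 7.3 against 7.4 to 7.6). The 4 surface epithelium markers that passed had medians of 7.13 to 7.34 in DM, 6.94 to 7.45 in Bmp15-/- and 6.55 to 6.86 in wildtype. The erythroid gene Alas2 was at 4.78 to 5.37 in DM, 5.04 to 6.31 in Bmp15-/- and 7.28 to 8.14 in wildtype. Immune and endothelial markers passed in 3 of 6 and 1 of 5 cases. The difference between the 3' and 5' control probe sets of Gapdh, which grows as the 5' ends of transcripts are lost, was 0.79 to 0.95 in DM, 0.66 to 0.73 in Bmp15-/- and 0.52 to 0.59 in wildtype (log2). The same difference for actin was 1.85 to 2.12 in DM, 1.85 to 1.92 in Bmp15-/- and 1.87 to 1.90 in wildtype, with all genotypes overlapping. The Gapdh difference and the theca and stroma medians had no overlap between genotypes and ran in the same order as several changes below. The actin difference did not, and the genes behind the theca and stroma medians moved both ways. The part of RNA quality and of theca and stroma transcripts in those changes was not tested. In pooled cells, a smaller share of cells with a transcript and less of it per cell cannot be told apart.

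In DM cumulus cells 5 of the 9 genes fell and 1 rose against wildtype. Dld fell most, followed by Cs, Idh3a, Ogdh and Mdh2, and Idh3b rose. Idh3g, Idh2 and Dlst did not pass the test. Among all 13447 genes tested, 28.1% were called in either direction, 18.2% lower and 9.95% higher. The 9 genes were chosen with earlier results of these data known, so 6 of 9 is no test against this background share. Of 8 other cycle enzyme genes tested, 0 were called. The median change over the 9 genes was -0.30 log2 units, against -0.06 over all genes tested. In 7 of the 9, the DM arrays lay entirely above or entirely below the wildtype arrays, as did 43.3% of all genes. A gene was called at a limma adjusted p under 0.05 (Benjamini-Hochberg over all genes tested), with each gene represented by its brightest probe set. The count fell to 3 when either wildtype array 2 or DM array 1 was left out. After quantile normalization 4 genes were called, with Cs and Dld lower and Idh3b and Idh3g higher (Idh3g by 0.31, adjusted p = 0.0276), so that the split was 2 lower and 2 higher, while Idh3a, Ogdh and Mdh2 changed by -0.29, -0.26 and -0.26 (adjusted p = 0.0785, 0.0611 and 0.0631). Averaging all probe sets of a gene turned the direction of Idh3a, which is taken up below.

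**Figure D1:**
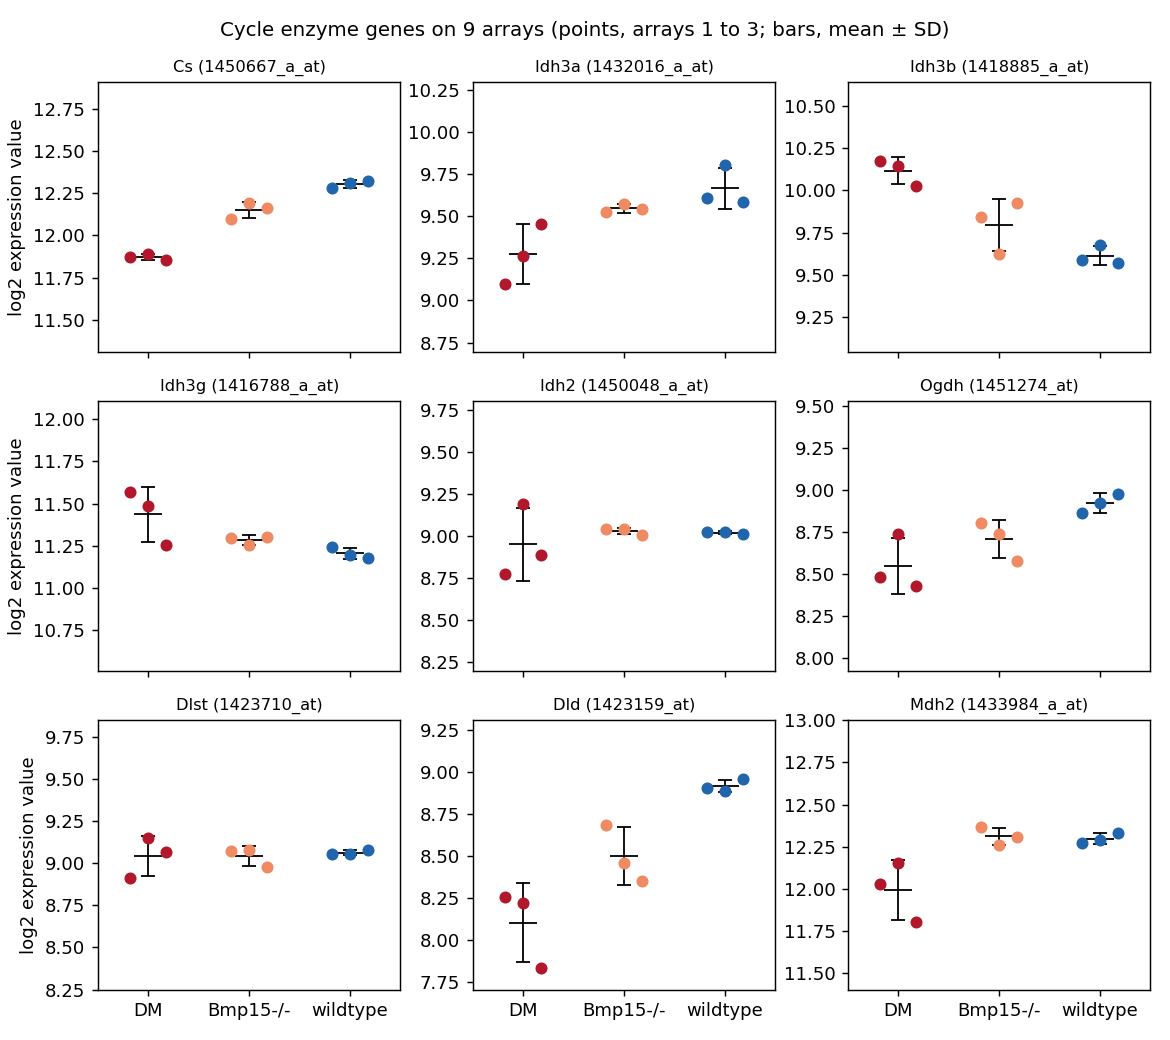
Log2 expression values (vertical axes, each spanning the same width of 1.6 log2 units) of the 9 cycle enzyme genes on the 3 arrays of DM, Bmp15-/- and wildtype (points), with mean and SD (bars). Cs and Dld are lowest in DM and highest in wildtype with no overlap of the 3 genotypes, while Dlst and Idh2 overlap in all of them.

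The 3 genes called in DM against wildtype under each of 18 alternative settings were Dld, Cs and Idh3b. Their promoters are shown here because these changes carry the finding. The windows run 5' to 3' on the coding strand from 250 bases before to 50 bases after the transcript start and come from RefSeq, build GRCm38.p6, whose table held promoters for 8 of the 9 genes. Capitals mark matches on either strand to CCAAT, the box bound by NF-Y, or to CCGGAAG, a core bound by ETS factors such as GABP.
Dld (chr12:31351422-31351721, minus strand): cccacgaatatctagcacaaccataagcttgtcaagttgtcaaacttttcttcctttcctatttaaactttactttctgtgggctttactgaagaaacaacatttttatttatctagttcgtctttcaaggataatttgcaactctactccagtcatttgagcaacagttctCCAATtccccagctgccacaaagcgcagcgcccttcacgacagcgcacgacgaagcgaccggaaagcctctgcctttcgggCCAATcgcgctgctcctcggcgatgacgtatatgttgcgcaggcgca
Cs (chr10:128337477-128337776, plus strand): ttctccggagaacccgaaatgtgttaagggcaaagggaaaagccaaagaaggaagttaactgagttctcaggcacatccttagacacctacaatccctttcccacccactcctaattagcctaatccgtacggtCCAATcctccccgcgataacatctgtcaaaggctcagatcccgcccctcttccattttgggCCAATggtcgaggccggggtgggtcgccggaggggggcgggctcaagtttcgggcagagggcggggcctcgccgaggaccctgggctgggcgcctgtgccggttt
Idh3b (chr2:130284402-130284701, minus strand): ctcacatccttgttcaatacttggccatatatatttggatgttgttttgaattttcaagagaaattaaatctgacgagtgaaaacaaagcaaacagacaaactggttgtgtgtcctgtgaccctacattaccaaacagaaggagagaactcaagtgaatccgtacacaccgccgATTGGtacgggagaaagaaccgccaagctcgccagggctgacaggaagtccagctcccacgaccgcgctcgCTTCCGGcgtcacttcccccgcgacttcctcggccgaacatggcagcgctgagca

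The windows of Dld and Cs, whose transcripts fell, each held 2 CCAAT matches and 0 CCGGAAG matches. The window of Idh3b, whose transcript rose, held 1 of each, both on the opposite strand. Of 32851 promoter windows in the table, 37.4% held CCAAT and 8.9% held CCGGAAG. The letters GCATGCGC (an NRF1 core) and AAGGTCA (a site of estrogen-related receptors), searched on both strands and found in 2.7% and 4.7% of windows, had 0 matches in these 3. Over the 13 windows of the 8 genes with a promoter, called or not, 10 held CCAAT, 3 CCGGAAG, 2 GCATGCGC and 1 AAGGTCA. No link between the letters and the direction of change was tested. A match is a description of letters and says nothing about binding.

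Citrate synthase, encoded by Cs, joins acetyl-CoA to oxaloacetate and is often used as a marker of mitochondrial content. Its brightest probe set, 1450667_a_at, had log2 values of 11.87, 11.89 and 11.85 on DM arrays 1 to 3, 12.10, 12.19 and 12.16 on Bmp15-/- arrays 1 to 3, and 12.28, 12.31 and 12.33 on wildtype arrays 1 to 3. The 3 genotypes did not overlap, and DM was lowest. Values of other genes below are given in the same order of arrays. The change in DM against wildtype was -0.44 ± 0.07 (log2, SE of the fit), a 1.35-fold fall with adjusted p = 0.00235. The other probe sets of the gene, 1422578_at and 1422577_at, changed by -0.44 and -0.54 in DM against wildtype, with adjusted p = 0.00607 and 0.00253 over the 27991 probe sets tested. All 3 Cs probe sets thus fell. In the same fit over probe sets, 10 of the 22 tested probe sets of the 9 genes were called in DM against wildtype, 8 lower and 2 higher, where 24.2% of all probe sets were called (16.2% lower and 8.09% higher). Among the higher ones was Idh3a 1447701_x_at. It passed the filter on dim values only through the mutant arrays, so its call does not count as a result. The remaining 2 of the 24, 1 each for Dlst and Dld, were too dim to be tested. The count of 10 fell to 6 when any of the 3 wildtype arrays was left out.

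The mitochondrial NAD-dependent isocitrate dehydrogenase is built from a catalytic alpha subunit (Idh3a) and the beta and gamma subunits (Idh3b and Idh3g), of which gamma is known for allosteric control. The transcripts of these subunits went in different directions in DM. Idh3a, probe set 1432016_a_at, had 9.10, 9.26 and 9.46 in DM, 9.52, 9.58 and 9.54 in Bmp15-/- and 9.61, 9.81 and 9.58 in wildtype (log2). All DM values lay below all values of the other genotypes, although DM array 3 came close to them. The change in DM against wildtype was -0.39 ± 0.11, a 1.31-fold fall with adjusted p = 0.0233. It did not pass without wildtype array 2 or without DM array 1 (adjusted p = 0.0863 and 0.0746).

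Idh3b, probe set 1418885_a_at, had 10.18, 10.15 and 10.03 in DM, 9.84, 9.62 and 9.93 in Bmp15-/- and 9.59, 9.68 and 9.57 in wildtype. The DM arrays stood above all others, while Bmp15-/- and wildtype overlapped through Bmp15-/- array 2. Idh3b rose 1.42-fold in DM against wildtype, by 0.51 ± 0.10 log2 units (adjusted p = 0.00486). Of its other probe sets, 1418886_s_at changed by 0.27 (adjusted p = 0.0903) and 1441271_at by 0.13 (adjusted p = 0.459), the same sign without passing. With all 3 averaged the change was 0.30.

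Idh3g, probe set 1416788_a_at, had 11.57, 11.49 and 11.25 in DM, 11.29, 11.25 and 11.30 in Bmp15-/- and 11.24, 11.19 and 11.18 in wildtype. DM arrays 1 and 2 stood apart, and DM array 3 lay among the Bmp15-/- values. Its change of 0.23 ± 0.09 in DM against wildtype had adjusted p = 0.0939, and without DM array 3 it was 0.32 with adjusted p = 0.0217. The second probe set, 1416789_at, changed by 0.11 with adjusted p = 0.373.

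Set against each other within an array, Idh3b minus Idh3a exceeded the wildtype mean by 1.13, 0.94 and 0.63 log2 units on DM arrays 1 to 3, by 0.37, 0.10 and 0.44 on the Bmp15-/- arrays, and by 0.04, -0.08 and 0.04 on the wildtype arrays. The genotype means were 0.90 ± 0.25 in DM, 0.30 ± 0.18 in Bmp15-/- and 0 ± 0.07 in wildtype (SD, n = 3 each). The pair was chosen after the values were seen, so it was not tested. The ratio of 2 probe sets shows unequal change and not the amounts of the subunits.

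Idh3a is read by 4 probe sets, and they disagreed. Besides 1432016_a_at, probe set 1422501_s_at fell by 0.37 in DM against wildtype (adjusted p = 0.036 over all probe sets), and 1422500_at had a change of -0.27 (adjusted p = 0.131). Probe set 1447701_x_at had 6.98, 6.88 and 6.54 in DM, 5.07, 6.40 and 6.28 in Bmp15-/- and 4.64, 4.81 and 4.47 in wildtype. It lay below the 40th percentile on all wildtype arrays and above it on all mutant arrays. Its changes were 2.16 ± 0.31 in DM and 1.27 ± 0.31 in Bmp15-/- against wildtype (adjusted p = 0.00174 and 0.0448). It passed the filter on dim values only through the mutant arrays, so a difference was built into its selection. In the naming of this array type, the suffix _x_at marks sets with probes that can also match unrelated transcripts. When all 4 probe sets were averaged, Idh3a changed by 0.28 in DM against wildtype with adjusted p = 0.0412, which is the opposite direction from the 3 bright probe sets.

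**Figure D2:**
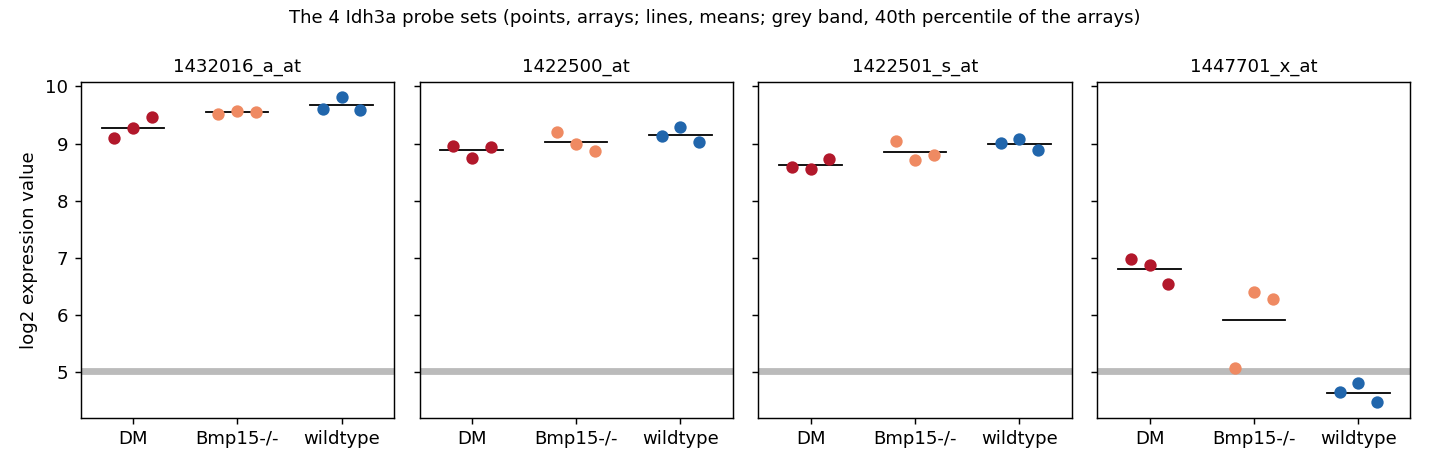
Log2 expression values (vertical axis) of the 4 Idh3a probe sets on the arrays of DM, Bmp15-/- and wildtype (points), with genotype means (lines) and the range of the 40th percentiles of the arrays, 4.97 to 5.05 (grey band). The 3 bright probe sets have their lowest mean in DM, while 1447701_x_at is below the band in wildtype and at 6.54 to 6.98 in DM.

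The difference between the 2 brightest Idh3a probe sets was tested as such. Within arrays, 1432016_a_at exceeded 1422500_at by 0.39 ± 0.22 log2 units in DM, 0.53 ± 0.18 in Bmp15-/- and 0.52 ± 0.04 in wildtype (SD, n = 3 each). An exact permutation test of the F statistic over all 1680 assignments of the arrays gave p = 0.636, where the smallest p possible is 0.00357.

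Idh2 encodes the NADP-dependent mitochondrial isocitrate dehydrogenase, a source of NADPH in the matrix. Its brightest probe set, 1450048_a_at, had 8.77, 9.19 and 8.89 in DM, 9.04, 9.04 and 9.01 in Bmp15-/- and 9.02, 9.03 and 9.01 in wildtype (log2). The DM arrays lay on both sides of the others, which were nearly level. The change in DM against wildtype was -0.07, with a 95% interval from -0.31 to 0.17 (adjusted p = 0.668), and it turned to 0.05 after quantile normalization. Probe set 1453601_at gave 0.16 (adjusted p = 0.233).

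The 2-oxoglutarate dehydrogenase complex makes succinyl-CoA with 3 components: the decarboxylase E1 (Ogdh), the succinyltransferase core E2 (Dlst) and the dihydrolipoyl dehydrogenase E3 (Dld). E3 is shared with the pyruvate, branched chain and glycine cleavage systems. In DM the transcripts of E3 and E1 fell, and that of E2 did not pass the test.

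Dld, probe set 1423159_at, had 8.25, 8.22 and 7.83 in DM, 8.69, 8.46 and 8.35 in Bmp15-/- and 8.90, 8.88 and 8.95 in wildtype. The genotypes did not overlap, and DM array 3 was lowest. Dld fell 1.75-fold in DM against wildtype, by 0.81 ± 0.13 log2 units (adjusted p = 0.00200). A second probe set, 1433263_at, was dim on all arrays (3.71 to 4.11), and averaging it in gave a change of -0.47.

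Ogdh, probe set 1451274_at, had 8.48, 8.74 and 8.43 in DM, 8.81, 8.74 and 8.58 in Bmp15-/- and 8.86, 8.93 and 8.98 in wildtype. Every mutant value lay below every wildtype value, and DM array 2 lay within the Bmp15-/- range. Ogdh fell 1.29-fold in DM against wildtype, by 0.37 ± 0.10 log2 units (adjusted p = 0.0268). It did not pass when wildtype array 1, 2 or 3, or DM array 1 or 3, was left out (adjusted p = 0.0533, 0.0725, 0.0856, 0.0799 and 0.0781). The second probe set, 1445632_at, scattered from 6.97 to 7.77 in DM and from 7.20 to 7.90 in wildtype and changed by -0.14 (adjusted p = 0.714).

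Dlst, probe set 1423710_at, had 8.91, 9.15 and 9.07 in DM, 9.07, 9.08 and 8.98 in Bmp15-/- and 9.05, 9.06 and 9.08 in wildtype. All genotypes overlapped. The change in DM against wildtype was -0.02, with a 95% interval from -0.21 to 0.17 (adjusted p = 0.886), and quantile normalization gave 0.10. Its other tested probe sets, 1431011_at and 1437775_at, gave -0.06 and 0.11 (adjusted p = 0.786 and 0.668). A fall of the size of that in Dld thus lies outside the interval for Dlst. Within arrays, Dlst minus Dld exceeded the wildtype mean by 0.79 ± 0.29 log2 units in DM and 0.39 ± 0.13 in Bmp15-/-, against 0 ± 0.02 in wildtype (SD, n = 3 each), a pair chosen after the values were seen and not tested.

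Mdh2, the mitochondrial malate dehydrogenase, closes the cycle and serves the malate-aspartate shuttle. Probe set 1433984_a_at had 12.03, 12.15 and 11.80 in DM, 12.36, 12.26 and 12.31 in Bmp15-/- and 12.27, 12.29 and 12.33 in wildtype. All DM values were below all others, and Bmp15-/- and wildtype overlapped. Mdh2 fell 1.24-fold in DM against wildtype, by 0.30 ± 0.10 log2 units (adjusted p = 0.0442). This call was close to the threshold and did not pass when any array other than DM array 2 was left out (adjusted p up to 0.119). The other probe set, 1416478_a_at, fell by 0.43 (adjusted p = 0.0187 over all probe sets).

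**Figure D3:**
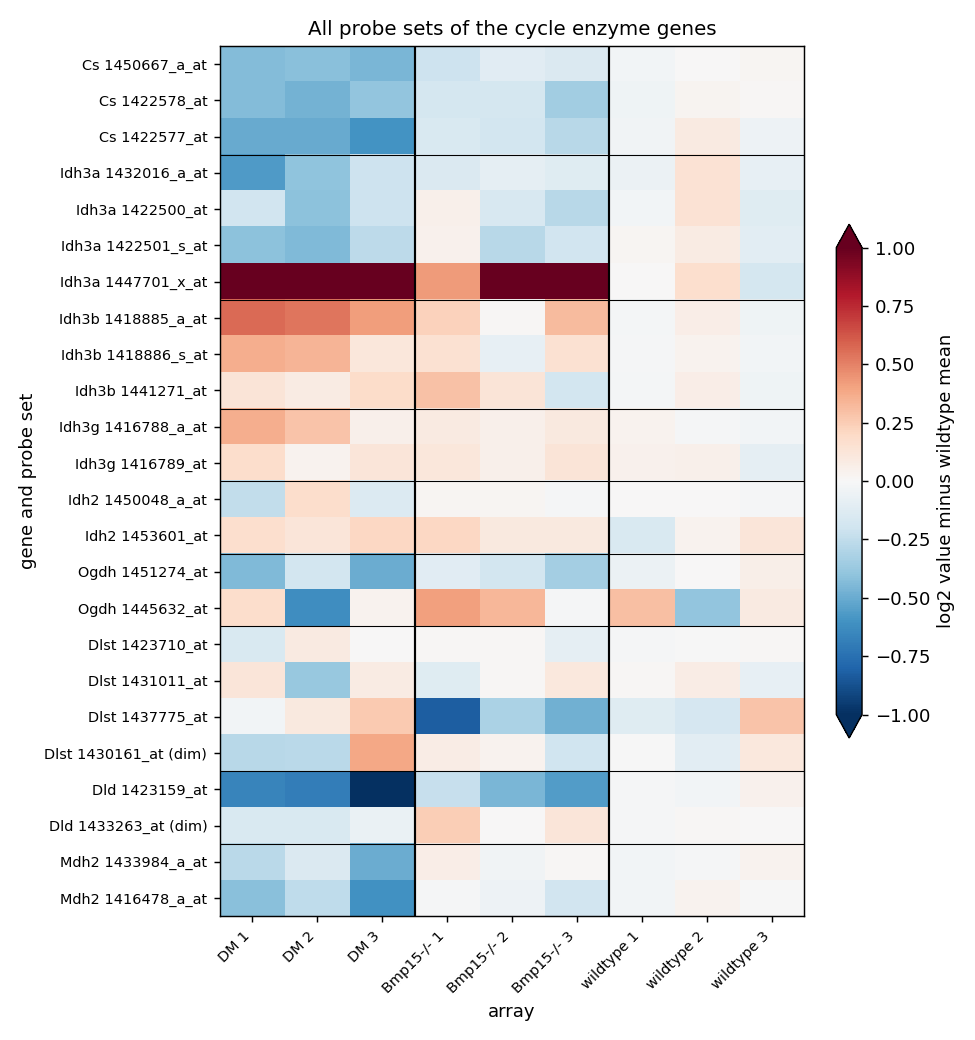
Log2 value minus the wildtype mean (colour, cut at -1 and 1) for all 24 probe sets of the 9 genes (rows, by gene, brightest first) on the 9 arrays (columns). The Cs, Dld 1423159_at and Mdh2 rows are lower in DM, the Idh3b rows are higher, and Idh3a 1447701_x_at rises beyond the colour range, to 2.16 on average, while the other Idh3a rows are lower.

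The comparison of Bmp15-/- with wildtype asks what the loss of BMP15 alone is accompanied by. With limma, 0 of the 9 genes were called, against 9.07% of all genes tested (3.29% higher and 5.78% lower), and 1 had an unadjusted p under 0.05. That gene was Dld, with a change of -0.41 ± 0.13 (adjusted p = 0.0771), which passed at adjusted p = 0.0312 without DM array 3 and at 0.0352 when only the 2 genotypes were fitted. Cs changed by -0.16 (95% interval -0.32 to 0.01), Ogdh by -0.21 (-0.45 to 0.02), Idh3a by -0.12 (-0.36 to 0.12), Idh3b by 0.18 (-0.03 to 0.40) and Idh3g by 0.08 (-0.13 to 0.29). Idh2, Dlst and Mdh2 changed by 0.01, -0.02 and 0.01. The Dlst probe sets disagreed here: 1437775_at, close to the dim threshold, changed by -0.54 (adjusted p = 0.0852), with 4.45 to 4.96 in Bmp15-/- and 5.11 to 5.57 in wildtype. The Bmp15-/- arrays did not overlap with the wildtype arrays in 5 of the 9 genes, as in 36.8% of all genes. Among the 22 tested probe sets, 1 was called, Idh3a 1447701_x_at, where 6.33% of all probe sets were called (2.05% higher and 4.28% lower). This probe set passed the filter on dim values only through the mutant arrays, so its call does not count as a result. The call was lost without any 1 of the wildtype arrays. It was also lost without Bmp15-/- array 2 or 3, or without DM array 1 or 2, and 2 probe sets were called without DM array 3.

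DM against Bmp15-/- asks what is different when 1 copy of Gdf9 is missing as well. With limma, 0 of the 9 genes and 0 of the 22 probe sets were called, where 3.25% of all genes (1.64% higher and 1.61% lower) and 1.93% of all probe sets (1.01% higher and 0.922% lower) were. At an unadjusted p under 0.05 there were 5 genes, namely Cs (-0.28 ± 0.07, adjusted p = 0.0673), Idh3b (0.32 ± 0.10, adjusted p = 0.106), Mdh2 (-0.32 ± 0.10, adjusted p = 0.112), Dld (-0.40 ± 0.13, adjusted p = 0.129) and Idh3a (-0.27 ± 0.11, adjusted p = 0.194). The arrays of DM and Bmp15-/- did not overlap in these 5 genes, as in 21.4% of all genes. Mdh2 passed at adjusted p = 0.044 without DM array 2. Cs passed at adjusted p = 0.0142 with trended, robust variance shrinkage. Idh3g, Ogdh, Idh2 and Dlst changed by 0.15, -0.16, -0.08 and 0.00, and Dlst 1437775_at by 0.65 (adjusted p = 0.0824). The wildtype arrays serve both mutants and the Bmp15-/- arrays serve 2 comparisons, so the comparisons are not independent of each other.

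**Figure D4:**
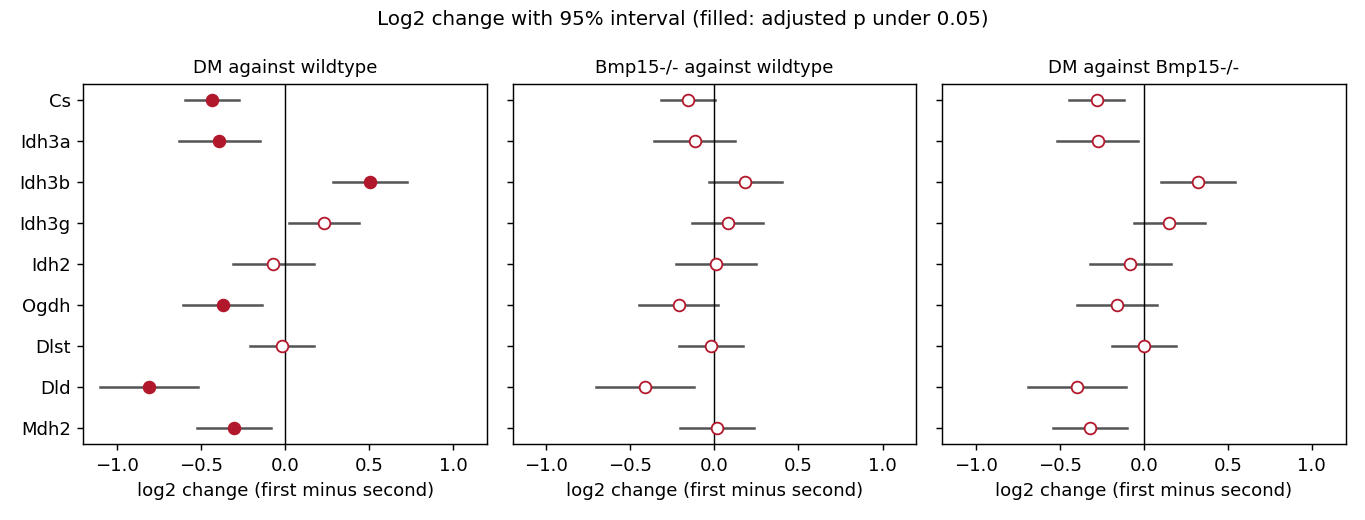
Log2 change (horizontal axis) of the 9 genes with its 95% interval in DM against wildtype, Bmp15-/- against wildtype and DM against Bmp15-/-. Filled points are called at a limma adjusted p under 0.05, which are 6 genes in DM against wildtype and 0 genes in the other comparisons.

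By genotype, the mean level stood in the order DM, Bmp15-/-, wildtype from low to high for Cs, Dld, Idh3a and Ogdh, and from high to low for Idh3b and Idh3g. In the fit to all 9 arrays as deposited, no neighbouring pair of genotypes differed at adjusted p under 0.05 in these 6 genes, although Cs and Dld each passed for 1 pair under the settings given above. Mdh2 was at 11.99 ± 0.18 in DM, 12.31 ± 0.05 in Bmp15-/- and 12.30 ± 0.03 in wildtype (SD, n = 3 each). Over the 9 arrays, Pearson's r was highest between Ogdh and Dld (0.913) and between Cs and Dld (0.891), and lowest between Cs and Idh3b (-0.928) and between Idh3a and Idh3g (-0.924). Idh2 and Dlst correlated with each other (r = 0.807) and more weakly with Cs (r = 0.312 and 0.117). These correlations span genotypes and share arrays, and they are descriptions. The other gene most like each member over the 9 arrays was Srcin1 for Dld (r = 0.994), Il17ra for Idh3b (0.991), Mfhas1 for Cs (0.989), Trappc9 for Mdh2 (0.988), Sike1 for Ogdh (0.987), Hspb1 for Idh3a (0.978), Tnfrsf14 for Idh3g (0.962), Oas2 for Idh2 (0.941) and Med7 for Dlst (0.932), each the highest of 13438 genes.

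The remaining steps of the cycle were read from a list of their enzymes. Of 8 other cycle enzyme genes tested (subunits of succinyl-CoA ligase and succinate dehydrogenase, and fumarase), 0 were called with limma in DM against wildtype and 0 in Bmp15-/- against wildtype, with 1 and 0 at an unadjusted p under 0.05. That 1 was the fumarase gene Fh1, at 10.71 ± 0.16 in DM and 10.95 ± 0.05 in wildtype (SD, n = 3 each, adjusted p = 0.0917). The list median was -0.16 in DM against wildtype. Probe sets of Sdhd, which encodes a membrane anchor of succinate dehydrogenase, disagreed: the brightest, 1437489_x_at, changed by 0.01 in DM against wildtype, while 1428235_at fell by 0.50 (adjusted p = 0.00376 over all probe sets). In Bmp15-/- against wildtype 1428235_at also fell, by 0.37 (adjusted p = 0.037), and 1437489_x_at changed by -0.07. Both genes were named after their values were seen.

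Larger changes lay at the entry of pyruvate. In DM against wildtype, 5 of 12 tested genes of pyruvate entry and its control fell and 3 rose, where 18.2% of all genes were lower and 9.95% higher. In Bmp15-/- against wildtype 2 fell and 4 rose, where 5.78% of all genes were lower and 3.29% higher. Pyruvate dehydrogenase kinase 1, Pdk1, which inhibits the pyruvate dehydrogenase complex, was at 10.11 ± 0.22 in DM, 10.87 ± 0.04 in Bmp15-/- and 11.56 ± 0.07 in wildtype (log2, SD, n = 3 each). It fell 2.73-fold in DM and 1.61-fold in Bmp15-/- against wildtype (adjusted p = 5.62e-05 and 0.00746), and 1.69-fold in DM against Bmp15-/- (adjusted p = 0.00992). Its probe sets 1434974_at and 1435836_at were not called in DM against Bmp15-/-, with changes of -0.11 and -0.24 (adjusted p = 0.884 and 0.398). In Bmp15-/- against wildtype 1434974_at changed by -1.11 (adjusted p = 0.0734). Another kinase of the complex, Pdk4, rose 1.97-fold in DM and 1.82-fold in Bmp15-/- against wildtype (adjusted p = 0.000109 and 0.000796). The phosphatase Pdp1, which reactivates the complex, rose 2.53-fold and 2.05-fold (adjusted p = 0.000426 and 0.00614). The E1 alpha subunit gene Pdha1 rose 1.69-fold and 1.45-fold (adjusted p = 0.00256 and 0.0327), read by 1418560_at. Its second probe set, 1449137_at, disagreed, with changes of -0.24 and 0.13 (adjusted p = 0.187 and 0.569). Pdhb, the E1 beta subunit, fell 1.37-fold in DM against Bmp15-/- (adjusted p = 0.0244), but its second probe set was not called there. Pdhb was also among the genes that rose in Bmp15-/- against wildtype, by 0.32 (adjusted p = 0.0460, and 0.0612 over all probe sets). Its second probe set, 1448214_at, changed by -0.22 there (adjusted p = 0.305). In DM against wildtype 1448214_at fell by 0.44 (adjusted p = 0.0314), while the brightest, 1416090_at, changed by -0.13 (adjusted p = 0.288).

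**Figure D5:**
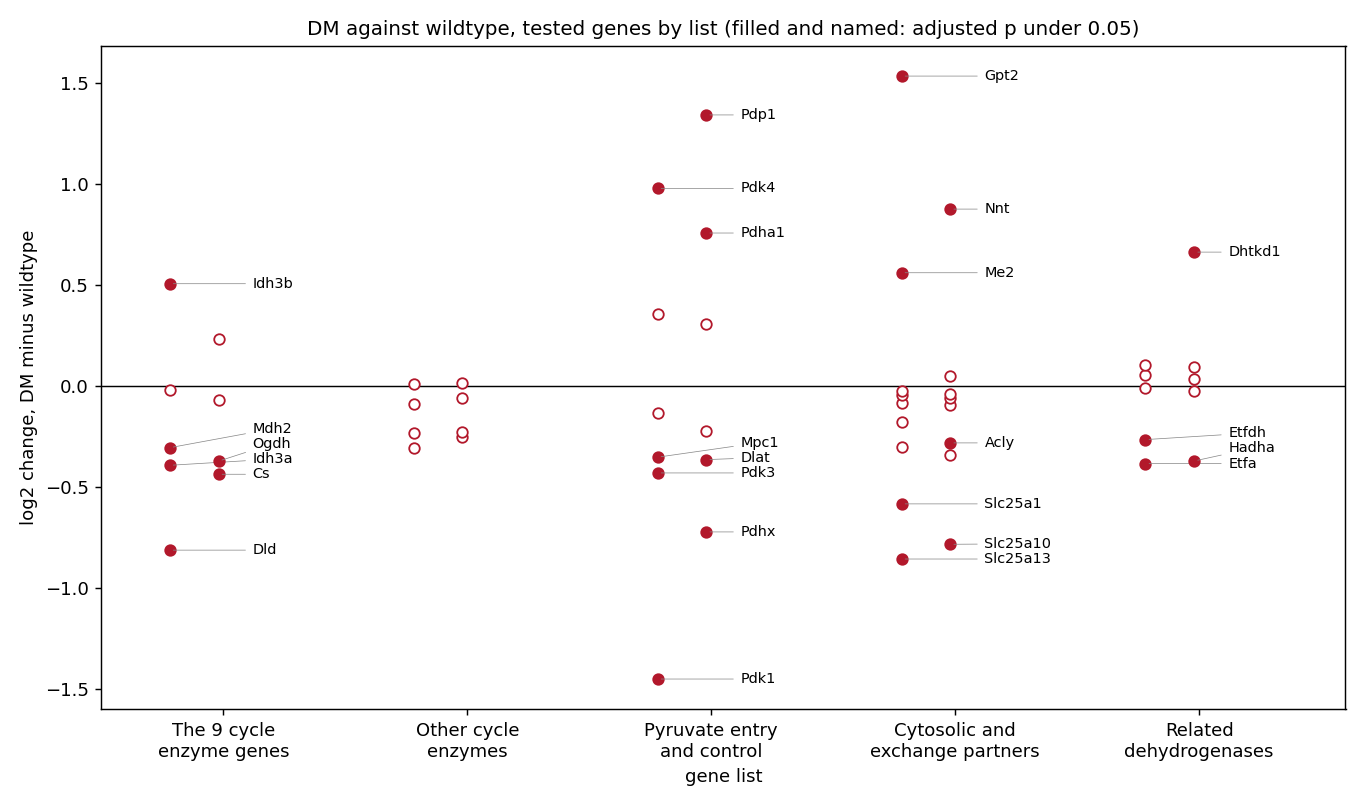
Log2 change in DM minus wildtype (vertical axis) of every tested gene in the 5 lists (horizontal axis; sideways spread has no meaning), with called genes filled and named. Pdk1 at -1.45 and Gpt2 at 1.53 are the extremes, while 0 of the 8 other cycle enzymes are called.

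Among 17 tested genes for cytosolic partners of the cycle, carriers and amino acid exchange, 4 fell and 3 rose in DM against wildtype, where 28.1% of all genes were called. In Bmp15-/- against wildtype 1 fell and 1 rose, near the 9.07% of all genes called. Gpt2, the mitochondrial alanine aminotransferase, which makes 2-oxoglutarate from glutamate, was at 12.67 ± 0.15 in DM, 11.90 ± 0.16 in Bmp15-/- and 11.14 ± 0.20 in wildtype. It rose 2.89-fold in DM and 1.70-fold in Bmp15-/- against wildtype, and 1.70-fold in DM against Bmp15-/- (adjusted p = 0.000103, 0.00948 and 0.0184). Of its 4 probe sets, 3 rose in DM against wildtype and 1439029_at changed by 0.22 (adjusted p = 0.364). Only the brightest was called in the other comparisons in the fit over probe sets. In Bmp15-/- against wildtype 1434542_at, 1455007_s_at and 1439029_at changed by 0.56, 0.49 and 0.15 (adjusted p = 0.22, 0.287 and 0.627). In DM against Bmp15-/- these probe sets changed by 0.96, 1.08 and 0.07 (adjusted p = 0.0942, 0.0752 and 0.857). Nnt, which makes NADPH from NADH across the inner membrane, rose 1.83-fold in DM against wildtype and 1.53-fold against Bmp15-/- (adjusted p = 0.000135 and 0.00795), while its probe set 1432608_at changed by -0.20 and -0.33 (adjusted p = 0.32 and 0.233). The aspartate-glutamate carrier Slc25a13 fell 1.81-fold in DM and 1.67-fold in Bmp15-/- against wildtype (adjusted p = 0.00543 and 0.0278), and the dicarboxylate carrier Slc25a10 fell 1.72-fold in DM (adjusted p = 0.00587). The mitochondrial malic enzyme Me2 rose 1.57-fold in DM against Bmp15-/- (adjusted p = 0.0467), read by 1426573_at. In the fit over probe sets none of its probe sets was called there. The adjusted p of 1426573_at was 0.0647, and 1426572_at, 1439526_at and 1458172_at changed by 0.29, 0.67 and 0.01 (adjusted p = 0.119, 0.113 and 0.973).

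Of 10 tested genes of related dehydrogenases in branched chain, lysine and fatty acid breakdown, 3 fell and 1 rose in DM against wildtype, where 18.2% of all genes were lower and 9.95% higher, and 0 were called in Bmp15-/- against wildtype with limma or at an unadjusted p under 0.05. Dhtkd1, a relative of Ogdh that acts on 2-oxoadipate, rose 1.58-fold in DM against wildtype and 1.52-fold against Bmp15-/- (adjusted p = 0.00515 and 0.0387). The electron transfer flavoprotein genes Etfa and Etfdh fell by 0.38 and 0.26 log2 units, and Hadha, of fatty acid oxidation, fell by 0.37, in DM against wildtype (adjusted p = 0.0239, 0.0469 and 0.0480). The list median was 0.01, against -0.06 over all genes tested.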

How the data were processed

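The authors deposited log2 expression values per probe set for 9 arrays. RMA and the affy package are named per the submitters' processing notes, their versions being not given in the sources used here. This kind of summary compresses changes of dim transcripts. Values ran from 2.87 to 14.53 with array medians of 5.52 to 5.59. The interquartile range, the spread of the middle of an array's values, differed by genotype. It was 3.16 to 3.34 in DM, 3.20 to 3.29 in Bmp15-/- and 3.37 to 3.42 in wildtype, so every mutant array lay below every wildtype array. The part of this difference in the changes was not tested. Within a genotype, Pearson's r between arrays was 0.988 or more. The number of arrays limits the precision.

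Symbols came from a platform annotation, updated through gene identifiers in RefSeq (GRCm38.p6). Of 45101 probe sets, 34958 had 1 gene, 932 several and 9211 none listed, and 34754 matched RefSeq. Each gene was represented by its brightest probe set and tested if at least 3 of 9 arrays exceeded the 40th percentile of their own array, which left 13447 genes. All arrays entered 1 fit on genotype with limma 3.58.1 in R 4.3.3 (lmFit, eBayes, 2-sided, 6 residual degrees of freedom), and calls used a Benjamini-Hochberg adjusted p under 0.05. The same fit was run over 27991 probe sets. The code was tested on simulated data. Figures used matplotlib 3.10.9.

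The 9 genes and the lists were chosen with earlier results of these data known. Named genes are all 9 members, the called list genes with the smallest p (up to 4 per list and comparison), and the 1 gene most correlated with each member. Exceptions are marked. List genes with no value were not analysed here. Alternatives covered the dim filter, probe set choice, quantile normalization, a floor, variance shrinkage, the genotypes fitted, a replicate block and left-out arrays.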

Additional observations from a re-analysis of the deposited data

How the results depend on the processing

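Across 18 alternative settings, the falls of Dld and Cs and the rise of Idh3b in DM against wildtype passed in all 18. The fall of Idh3a passed in 12, that of Ogdh in 10 and that of Mdh2 in 6. The count of 6 called genes there was 3 without wildtype array 2 and Bmp15-/- array 2 together, the arrays richest in oocyte transcripts within their genotypes, and 3 to 6 when 1 array was left out. The 10 called probe sets became 6 in the first case and 6 to 11 in the second. Against wildtype, the 1 probe set called in Bmp15-/- became 0 with no dim filter, after quantile normalization, with a floor, with the replicate block or without those 2 arrays, and 0 to 2 when 1 array was left out. Member genes called in Bmp15-/- numbered 1 when only the 2 genotypes were fitted and 0 to 1 with 1 array left out. In DM against Bmp15-/-, 1 gene and 1 probe set were called with trended, robust shrinkage, and 0 to 1 genes and 0 probe sets with 1 array left out.

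Counts over all genes moved as well. In Bmp15-/- against wildtype 1219 became 1894 with only the 2 genotypes fitted, 152 without the 2 arrays named above and 445 to 1660 with 1 array left out. In DM against wildtype 3780 became 2191 without those arrays and 2633 to 4147 with 1 left out. In DM against Bmp15-/- 437 became 117 with only the 2 genotypes, 11 without those arrays and 108 to 923 with 1 left out. Fewer arrays leave fewer degrees of freedom; other causes were not tested. After quantile normalization 46.8% of calls in Bmp15-/- against wildtype were lower, against 63.7% as deposited, and 51.7% against 64.6% in DM against wildtype.

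Directions turned where changes were small or probe sets disagreed. With all probe sets averaged, Idh3a, Ogdh and Mdh2 changed by 0.22, 0.016 and -0.0361 in Bmp15-/- against wildtype, Idh2 and Idh3a by 0.0474 and 0.28 in DM against wildtype, and Idh3a by 0.0598 in DM against Bmp15-/-. After quantile normalization Dlst changed by 0.10 and 0.0803 in DM and Bmp15-/- against wildtype and Idh2 by 0.048 in DM. With 1 array left out, Dlst ran from -0.0732 to 0.0459 in DM against wildtype, from -0.0384 to 0.013 in Bmp15-/- against wildtype and from -0.0526 to 0.0664 in DM against Bmp15-/-, Mdh2 from -0.0146 to 0.0374 in Bmp15-/- against wildtype, and Idh2 from -0.19 to 0.0199 in DM against wildtype and -0.20 to 0.0102 in DM against Bmp15-/-. The difference of the 2 brightest Idh3a probe sets, DM minus wildtype, was -0.12 and ran from -0.19 to 0.002.

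Replicate numbers are shared by the genotypes. Correlations of deviations ran from -0.08 to 0.26 for arrays of the same number and from -0.20 to 0.17 for arrays of different numbers. Of 9 arrays, 4 correlated best with their own number. These values do not settle whether the numbers pair the arrays. With the replicate block, 5 member genes were called in DM against wildtype, Mdh2 being lost (adjusted p = 0.068), and 0 in the other comparisons; over all genes, 3587 were called in DM against wildtype, 1084 in Bmp15-/- against wildtype and 360 in DM against Bmp15-/-.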
